A study of Mus musculus with 6 samples.

Results

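The miR-15/16 family of microRNAs (miRNAs) was examined in the aged left ventricle, in mice with a myosin mutation labelled as an HCM model (read here as hypertrophic cardiomyopathy) and in wild-type (WT) mice. The members were taken by name from the deposited table: mmu-miR-15a, mmu-miR-15b, mmu-miR-16, mmu-miR-195, mmu-miR-497, mmu-miR-322 and mmu-miR-322*. These are 7 of the 698 miRNAs listed, under older names, where the asterisk stands for a precursor's minor strand. Small RNA was sequenced from 6 ventricles, 3 labelled 403 mutant and 3 labelled WT, all from mice more than 50 weeks old. The 403 mutants are labelled aMHC403/+, so they carry the R403Q change on 1 of their alleles of Myh6, which encodes alpha-myosin heavy chain, the main myosin of the adult mouse ventricle. The WT mice carry no mutant allele according to the labels, while strain, sex and exact age are not stated in the labels. The libraries are titled biological replicates, and each counted as 1 animal. Values are reads per 1000000 miRNA reads (RPM), so each is a share of its library's miRNA reads. In bulk tissue, fewer cells of a type and less RNA per cell cannot be told apart.

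A miRNA guides silencing proteins to messenger RNAs, chiefly by pairing of its seed (bases 2 to 8) with matching sites. miRNAs with the same seed are therefore grouped into families with overlapping targets. The miR-15/16 family is known for restraining the cell cycle, through targets such as cyclins and Chek1, and for repressing the survival factor Bcl2. In the mouse heart, miR-195 is known to rise after birth as cardiomyocytes leave the cell cycle, and its overexpression in the mouse heart is known to cause cardiomyopathy.

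The mature sequences are shown because they define the family. Bases 2 to 8 are in capitals, and miR-503, a neighbour of miR-322 outside the member list, is added for its near-identical seed. The sequences are those of RefSeq (GRCm38.p6), which held all 19 of the member and neighbour sequences looked up, and each is identical to the deposited one apart from U in place of T.
miR-15a: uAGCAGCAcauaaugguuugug
miR-15b: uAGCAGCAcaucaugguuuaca
miR-16: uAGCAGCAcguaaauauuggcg
miR-195: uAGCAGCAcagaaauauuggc
miR-497: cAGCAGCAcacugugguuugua
miR-322: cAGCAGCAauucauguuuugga
miR-322*: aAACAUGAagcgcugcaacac
miR-503: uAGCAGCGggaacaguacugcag

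The first 6 members had the same seed, AGCAGCA, which 7 of the 698 listed miRNAs (1.003%) carried. The seventh, miR-1907, was at 0 reads in every library. miR-322* had another seed, AACAUGA, and belongs to the set only as the opposite strand of the miR-322 precursor. With positions counted from the 5′ end, miR-16 and miR-195 differed by G10A and U11G alone over 21 bases. miR-15a and miR-15b differed by A12C, G20A, U21C and G22A. From miR-16 to miR-503 the seed differed by A8G. The authors' tolerance for mismatches in counting is not given in the sources used here, so reads of miR-16 and miR-195, or of miR-15a and miR-15b, could have been exchanged to an unknown extent.

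The members come from 4 gene clusters (coordinates of GRCm38.p6). Mir15b and Mir16-2 lie 66 bases apart on chromosome 3, plus strand, in an intron of Smc4, a condensin gene, with mature miR-15b at 69009775 to 69009796. Mir15a and Mir16-1 lie 54 bases apart on chromosome 14, minus strand, in an intron of the noncoding gene Dleu2, with mature miR-15a at 61632075 to 61632096. Mature miR-16 is identical from both clusters (69009918 to 69009939 and 61631936 to 61631957), so reads cannot be traced to a locus. Mir497 and Mir195a lie 241 bases apart on chromosome 11, plus strand, with miR-497 at 70234730 to 70234751 and miR-195 at 70235062 to 70235082. Mir322 lies 200 bases from Mir503 on chromosome X, minus strand, with miR-322 at 53054306 to 53054327 and miR-322* at 53054269 to 53054289. GENCODE M21 placed no gene other than miRNAs over the chromosome 11 and X loci.

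Libraries held 2483486 to 4267939 miRNA reads in the 403 mutants and 3647223 to 5223636 in WT. Of all miRNAs, 193 had a mean of at least 10 RPM and were tested, among them all 7 members. The labelled tissue was checked against 5 heart muscle miRNAs (miR-1, miR-133a, miR-208a, miR-208b and miR-499), which together made up 400915 to 463229 RPM in the 403 mutants and 425032 to 503983 RPM in WT, with none at 0. Differences are given as log2(RPM + 1), 403 mutant minus WT, with limma's standard error (SE) and its p adjusted by the Benjamini-Hochberg method over the 193 miRNAs. This scale understates changes of miRNAs with few reads. Fold changes above 0 were the rule in this table, at 137 of the 193 miRNAs (71%), and the median of all tested was 0.15.

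In the 403 mutant ventricle miR-497 was higher than in WT, at 2.04 times the WT mean, and it was the member of the family that passed the test. miR-322, miR-15b and miR-195 had means 1.32 to 1.48 times those of WT and did not pass. miR-16, the most abundant member, miR-15a and miR-322* had log2 differences of 0.03, 0.12 and 0.21, each smaller than its standard error. Thus 1 of the 7 members was called higher, against 5.18% of all miRNAs tested (10 of 193). None was called lower, against 0% of all tested. At an unadjusted p under 0.05, limma gave 2 of the 7 members higher and 0 lower, beside 19.7% of all tested higher and 2.07% lower. All 7 members had fold changes above 0, beside 71% of all tested, with a median of 0.41 beside 0.15, although miR-16 fell below 0 under all 3 rescalings and miR-15a under 2 of them. In 3 members the lowest 403 mutant library exceeded the highest WT library, which was so for 18.1% of all tested.

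**Figure D1:**
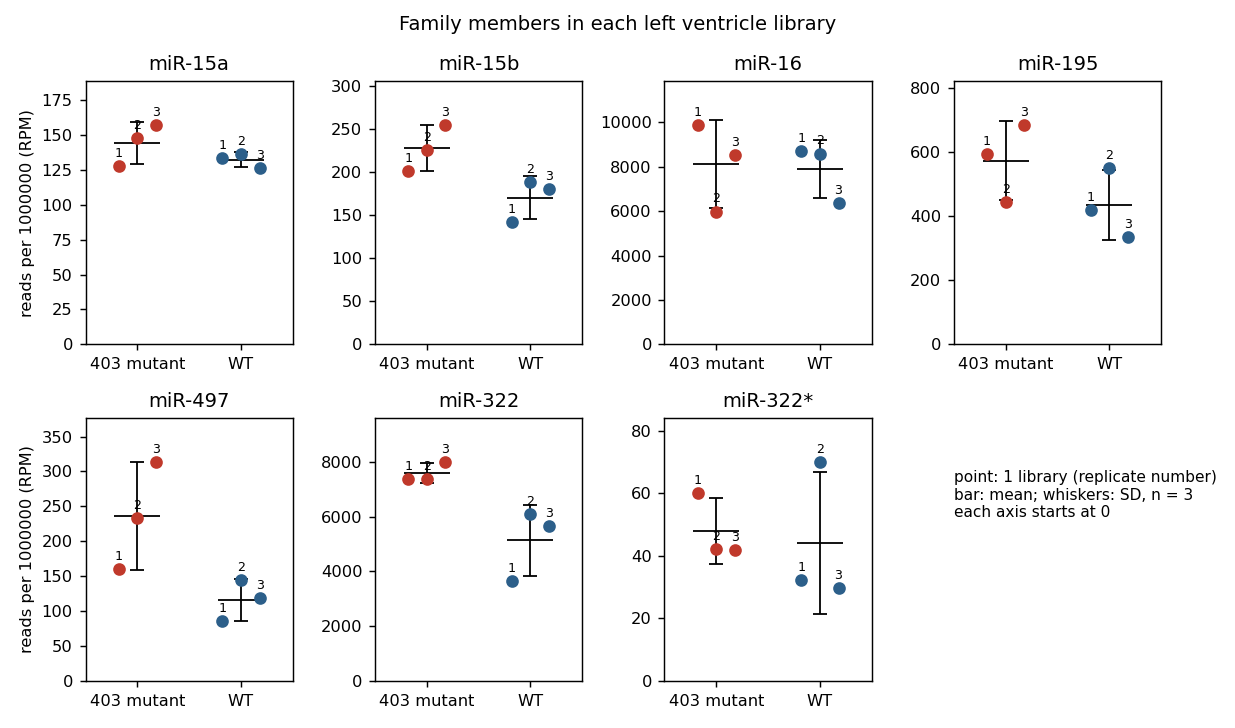
Abundance of each family member in RPM (vertical axes from 0) in the 3 403 mutant and 3 WT libraries. Points are libraries with their replicate number, and bars and whiskers give the mean and SD (n = 3). For miR-15b, miR-497 and miR-322 the 3 403 mutant libraries lie above all WT libraries, whereas the groups overlap for the other 4.

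miR-16, encoded in both intronic clusters, had the highest mean of the members in each group. It stood at 9892, 5985 and 8547 RPM in 403 mutant replicates 1 to 3, against 8697, 8601 and 6386 RPM in WT replicates 1 to 3. The groups overlapped fully, with 403 mutant replicate 1 the highest and 403 mutant replicate 2 the lowest of all libraries. The means were 8141 ± 1985 RPM in the 403 mutant and 7895 ± 1307 RPM in WT (SD, n = 3 each). The log2 difference was 0.03 ± 0.20 (SE, limma adjusted p = 0.938), with a 95% interval of −0.37 to 0.43, and it turned negative under every rescaling tried.

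miR-15a, which shares its host gene Dleu2 with a copy of miR-16, had 128, 148 and 157 RPM in 403 mutant replicates 1 to 3, against 134, 137 and 127 RPM in WT. Here 2 mutants lay above all WT libraries and the third lay among them. Its log2 difference of 0.12 ± 0.23 did not pass (limma adjusted p = 0.812), and it lay 0.03 below the median of all tested miRNAs. It turned negative with median-of-ratios scaling, with library totals taken without the 5 most abundant miRNAs and with DESeq2.

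miR-15b, the partner of miR-16 in the Smc4 intron, had 202, 226 and 255 RPM in 403 mutant replicates 1 to 3, against 142, 189 and 180 RPM in WT. All mutants exceeded all WT libraries, and the gap between the nearest libraries was small, 202 against 189 RPM. With 860 and 702 reads behind them, these values had Wilson 95% intervals of 188 to 215 and 175 to 203 RPM, which overlap. The means were 227 ± 26.7 RPM in the 403 mutant and 170 ± 24.9 RPM in WT (SD, n = 3 each), and the log2 difference of 0.42 ± 0.23 did not pass (limma adjusted p = 0.294). Such intervals reflect counting error alone, since each is drawn from the reads of 1 library and holds no spread between animals. PCR copies were not told apart by molecular identifiers in the described protocol, so the intervals may be too narrow.

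miR-195 and miR-497 are made from neighbouring hairpins of the same strand. miR-195 had 593, 443 and 686 RPM in 403 mutant replicates 1 to 3, against 419, 551 and 334 RPM in WT. The groups overlapped, as 403 mutant replicate 2 lay below WT replicate 2. Its log2 difference of 0.41 ± 0.23 did not pass (limma adjusted p = 0.328), and was 0.27 without 403 mutant replicate 3 and 0.23 without WT replicate 3.

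miR-497 had 160, 234 and 314 RPM in 403 mutant replicates 1 to 3, against 85.3, 144 and 118 RPM in WT. The groups did not overlap, with 403 mutant replicate 1 close to WT replicate 2 and 403 mutant replicate 3 furthest away. The nearest values rested on 683 and 536 reads, with Wilson 95% intervals of 148 to 172 and 132 to 157 RPM, which overlap. The means were 236 ± 77.0 RPM in the 403 mutant and 116 ± 29.5 RPM in WT (SD, n = 3 each). The log2 rise of miR-497 was thus 0.999 ± 0.257 (SE, limma adjusted p = 0.0123), the 7th largest difference of the 193, and by 0.85 relative to the median of all tested.

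The miR-497 call was lost with median-of-ratios scaling (adjusted p = 0.0746), TMM scaling (0.111) and totals without the 5 most abundant miRNAs (0.0707), all by limma. It was also lost without 403 mutant replicate 3 (limma adjusted p = 0.264), WT replicate 1 (0.0678) or WT replicate 3 (0.150), with log2 differences of 0.77, 0.80 and 1.03. All 4 fibroblast-enriched miRNAs with a row, of 5 listed, were higher in the 403 mutant, as were 71% of all miRNAs tested. By limma, miR-199a-3p did not pass (0.65, adjusted p = 0.0823), whereas miR-199a-5p (1.18), miR-214 (1.37) and miR-21 (1.43) were called higher. The list was chosen with earlier results of these data known, so it was not independent of these differences. The 4 summed to 3931 to 8512 RPM in the 403 mutants and 1613 to 3040 RPM in WT, with none at 0. These sums did not overlap but carry no test. The sums of the endothelial (miR-126-3p and miR-126-5p) and smooth muscle (miR-143 and miR-145) lists overlapped between groups. So did those of 7 blood and immune miRNAs and of the 5 heart muscle miRNAs, but members within each of these sums went both ways. Among blood and immune miRNAs, miR-142-3p was called higher (0.70, limma adjusted p = 0.0333). There miR-142-5p (0.74) and miR-223 (0.55) did not pass, nor did miR-150 (−0.48), miR-451 (−0.33), miR-144 (−0.21) and miR-486 (−0.10). Among heart muscle miRNAs, miR-208b was called higher (0.63, limma adjusted p = 0.0282). There miR-208a (0.06), miR-133a (−0.14), miR-1 (−0.30) and miR-499 (−0.55) did not pass. The part of any cell type in the difference of miR-497 was not tested.

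miR-322 is the X-linked member and is nearly as abundant as miR-16. It had 7376, 7378 and 8017 RPM in 403 mutant replicates 1 to 3, against 3665, 6096 and 5669 RPM in WT. Here too the mutants lay above WT without overlap, the mutants were close to each other, and WT replicate 1 stood apart below the rest. For miR-15b and miR-497, too, WT replicate 1 was the lowest of the 6 libraries. The means were 7591 ± 370 RPM in the 403 mutant and 5143 ± 1298 RPM in WT (SD, n = 3 each). The log2 difference of 0.59 ± 0.20 had a 95% interval of 0.20 to 0.99 but did not pass over all miRNAs (limma adjusted p = 0.0683). Without WT replicate 1 it was 0.37 (limma adjusted p = 0.446), whereas miR-322 passed without 403 mutant replicate 1 (0.0324) or WT replicate 2 (0.0397).

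The opposite strand, miR-322*, stood at 60.2, 42.1 and 41.9 RPM in 403 mutant replicates 1 to 3, against 32.4, 70.2 and 29.7 RPM in WT. WT replicate 2 was the highest and the other WT libraries were the lowest, so the groups overlapped. The log2 difference was 0.21 ± 0.28 (limma adjusted p = 0.711), with a 95% interval of −0.36 to 0.78. Without WT replicate 3 it was −0.01, and with DESeq2 −0.00044.

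**Figure D2:**
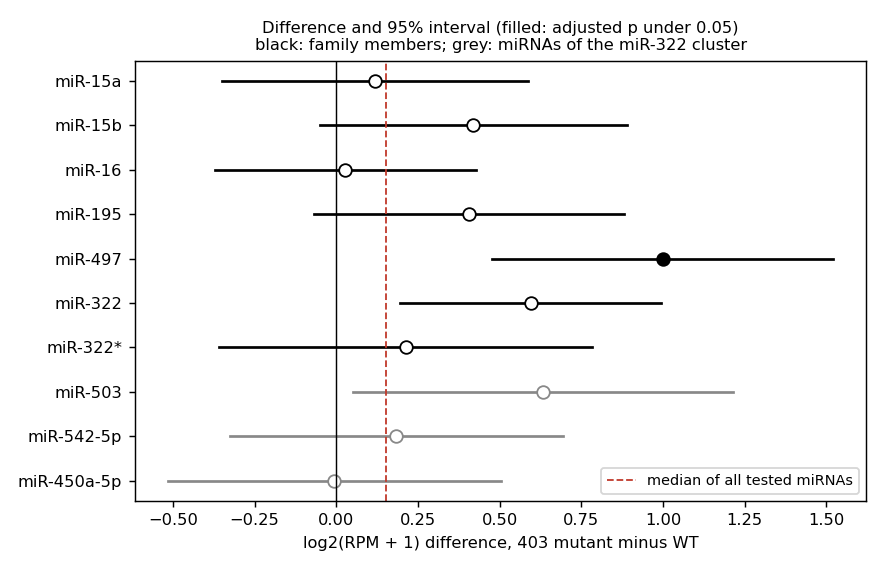
Differences in log2(RPM + 1), 403 mutant minus WT, with limma's 95% intervals, for the 7 members (black) and the 3 tested neighbours of miR-322 (grey). Filled points have an adjusted p under 0.05, which only miR-497 among these 10 does, and the dashed line marks the median of all tested miRNAs (0.15).

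Within each library miR-16 and miR-322 dominated the family. Together they held 92.1% to 94.1% of the reads of the 6 members with the shared seed. miR-16 held 47.7% ± 6.19 of these reads in the 403 mutant and 56.9% ± 8.39 in WT, and miR-322 held 45.3% ± 5.53 in the 403 mutant and 37.0% ± 8.33 in WT (SD, n = 3 each). In 403 mutant replicate 2 miR-322 exceeded miR-16, with 51.2% against 41.5%, whereas in WT replicate 1 miR-16 held 66.2% and miR-322 27.9%. Each library's share had a Wilson 95% interval at most 0.926 percentage points wide.

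The remaining members were small in share. miR-195 held 3.37% ± 0.39 in the 403 mutant and 3.10% ± 0.46 in WT, and miR-497 held 1.41% ± 0.47 in the 403 mutant and 0.830% ± 0.157 in WT. For miR-15b the shares were 1.36% ± 0.24 in the 403 mutant and 1.23% ± 0.16 in WT, and for miR-15a 0.866% ± 0.165 in the 403 mutant and 0.959% ± 0.078 in WT (SD, n = 3 each). By level, miR-16 and miR-322 overlapped in the 403 mutants, whereas in WT every library had more miR-16 than any had miR-322. miR-195 followed below them without overlap. miR-497 overlapped with miR-15b in the 403 mutants, and with miR-15b and miR-15a in WT. miR-322* was the least abundant member in every library. Small RNA libraries are known to capture some sequences more readily than others, so levels of different miRNAs are only roughly comparable.

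The 6 members with the shared seed summed to 18351, 14414 and 17976 RPM in 403 mutant replicates 1 to 3, against 13142, 15718 and 12814 RPM in WT. The groups overlapped, since 403 mutant replicate 2, with the lowest miR-16, lay below WT replicate 2. The mean sum was 16914 ± 2173 RPM in the 403 mutant and 13892 ± 1591 RPM in WT (SD, n = 3 each), or 1.22 times as high. A sum without miR-16, the member with the smallest log2 difference, covers the other 6 members, miR-322* included. It was 8519, 8472 and 9471 RPM in the 403 mutants, against 4478, 7187 and 6458 RPM in WT. All mutants exceeded all WT libraries in this sum, as they did for miR-322 alone. The member left out was picked by its small difference, so the separation depends on that choice. The share of single miRNAs tested in which this was so, 18.1%, is no background for such a sum. These sums carry no test, and most of the second one was miR-322.

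**Figure D3:**
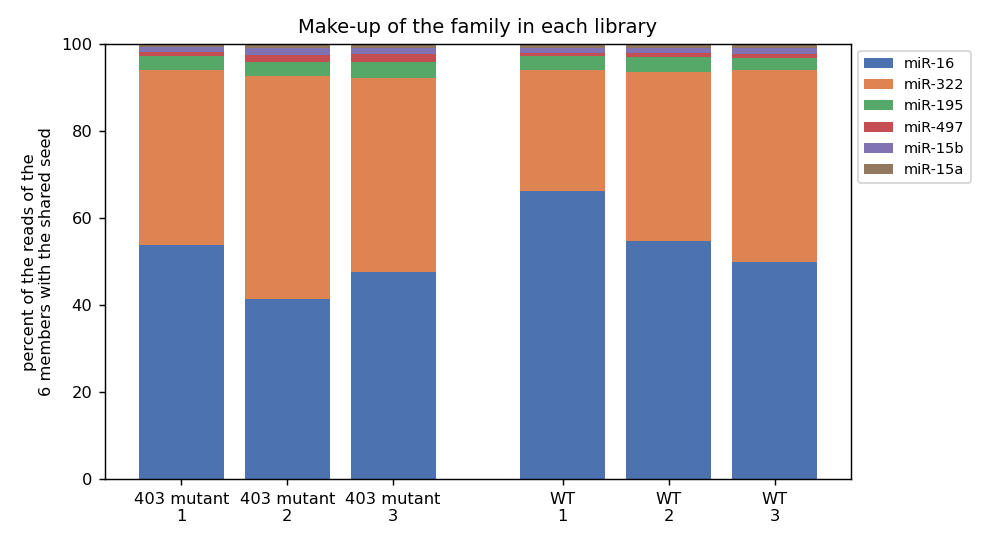
Share of each member (percent, stacked to 100) among the reads of the 6 members with the shared seed, for each library. miR-16 and miR-322 fill 92.1% to 94.1% of every bar, and the miR-16 share ranges from 41.5% in 403 mutant replicate 2 to 66.2% in WT replicate 1.

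Ratios of members within a library, given here as percentages, do not depend on how libraries are scaled. Their tested log2 values were of RPM + 1, which leaves a slight dependence for members with few reads. For 8 such ratios the groups were compared by a two-sided exact permutation test, in which 3 against 3 libraries allow no p below 0.1, so none could pass at 0.05. miR-15a as a percentage of miR-15b was 63.4%, 65.4% and 61.8% in the 403 mutants, against 94.2%, 72.5% and 70.2% in WT. This was the only ratio of the 8 in which the groups did not overlap (log2 difference −0.30, exact p = 0.1, the smallest possible; 0.4 adjusted over the 8). The mutants were nearly alike, and WT replicate 1 was the highest; without it the log2 difference was −0.17.

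miR-497 as a percentage of its cluster neighbour miR-195 was 27.0%, 52.8% and 45.8% in the 403 mutants, against 20.3%, 26.1% and 35.4% in WT. The groups overlapped through 403 mutant replicate 1 (log2 difference 0.59, exact p = 0.2, adjusted 0.4). The pass of miR-497 and the miss of miR-195 therefore do not show that these neighbours changed by different amounts.

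miR-322 as a percentage of miR-16 was 74.6%, 123% and 93.8% in the 403 mutants, against 42.1%, 70.9% and 88.8% in WT, also with overlap (log2 difference 0.57, exact p = 0.2, adjusted 0.4). Without WT replicate 1 that difference was 0.26. miR-322* as a percentage of miR-322 was 0.816%, 0.571% and 0.522% in the 403 mutants, against 0.883%, 1.15% and 0.523% in WT. The exact p was 0.3 (adjusted 0.4), or 0.4 unadjusted without the added 1. The log2 difference was −0.38. It was −0.14 without WT replicate 2 and −0.69 without WT replicate 3. The strand ratio thus overlapped between groups, and the major strand outnumbered the minor in every library. The other 4 ratios, all over miR-16, had exact p of 0.8 for miR-15a, 0.4 for miR-15b, 0.3 for miR-497 and 0.2 for miR-195. Over miR-16 the log2 difference was 0.97 for miR-497 and 0.38 for miR-195.

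**Figure D4:**
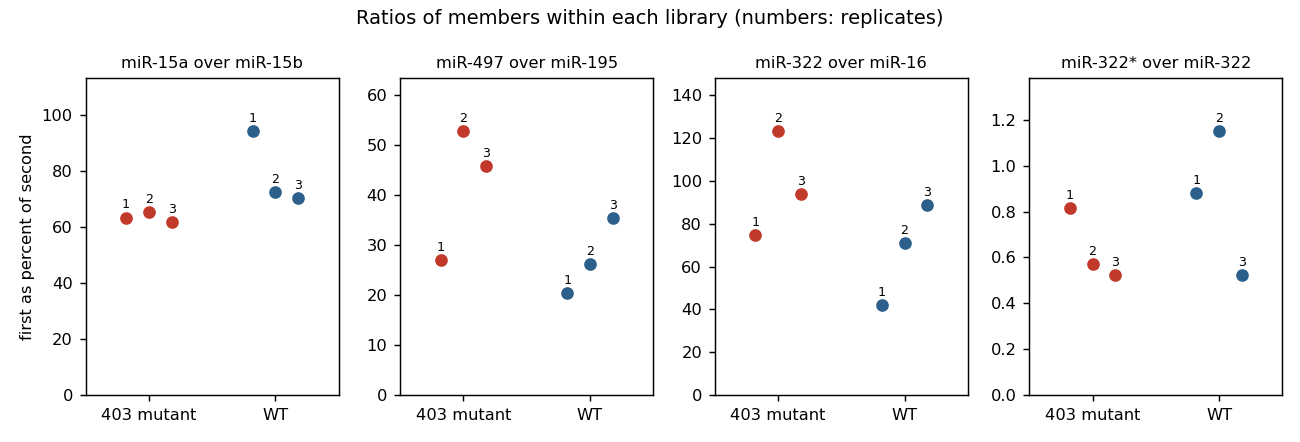
Ratios of family members within each library, the first as a percentage of the second (vertical axes from 0), with replicate numbers. The 3 403 mutant libraries lie below all WT libraries for miR-15a over miR-15b (61.8% to 65.4% against 70.2% to 94.2%), and the groups overlap in the other 3 panels.

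The hairpins of miR-322 and miR-497 are shown with both mature strands in capitals, since the 2 strands of miR-322 were both measured and miR-497 was the member that passed. Mir322 lies at chrX:53054255-53054349, minus strand, and Mir497 at chr11:70234717-70234800, plus strand (GRCm38.p6, RefSeq).
Mir322: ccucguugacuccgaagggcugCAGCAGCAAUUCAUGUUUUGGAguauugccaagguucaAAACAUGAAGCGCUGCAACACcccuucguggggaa
Mir497: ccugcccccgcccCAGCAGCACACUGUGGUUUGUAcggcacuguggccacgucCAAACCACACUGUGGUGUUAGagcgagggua

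Other strands of the family's precursors were scarce. Over all 6 libraries miR-15a* had 1 read and miR-16*, the minor strand of Mir16-1, had 0, where 3 reads would be 0.574 to 1.21 RPM. miR-15b* had 19 reads in all. By contrast, miR-322* had 1070 reads beside 147701 of miR-322. Minor strands of miR-195 and miR-497 were looked up as miR-195* and miR-497* and had no row under these names.

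Of the 12 minor strands and X-linked neighbours of miR-322 with a row, 3 passed the filter, and 0 of these were called higher or lower by limma, beside 5.18% higher over all tested. At an unadjusted p under 0.05, 1 of the 3 was higher (miR-503) and 0 were lower, beside 19.7% higher and 2.07% lower over all tested. miR-503, whose seed differs from the family's in its last base, had 36.3, 20.7 and 24.6 RPM in 403 mutant replicates 1 to 3, against 11.0, 25.0 and 16.8 RPM in WT. WT replicate 2 lay above 2 of the mutants, and the log2 difference of 0.63 ± 0.29 did not pass (limma adjusted p = 0.180).

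miR-542-5p and miR-450a-5p lie further along the same X-linked cluster. miR-542-5p averaged 64.4 ± 10.6 RPM in the 403 mutant and 57.1 ± 13.7 RPM in WT, and miR-450a-5p averaged 41.1 ± 3.55 RPM in the 403 mutant and 41.7 ± 8.75 RPM in WT (SD, n = 3 each). Their log2 differences of 0.18 ± 0.25 and −0.01 ± 0.25 did not pass (limma adjusted p = 0.721 and 0.991). For miR-322, miR-322*, miR-503, miR-542-5p and miR-450a-5p, WT replicate 2 was the highest WT library. This was not particular to the X-linked cluster. It was so too for miR-15a, miR-15b, miR-195 and miR-497 on other chromosomes, though not for miR-16. Nor was it particular to the family, since the median-of-ratios factor over the tested miRNAs was 1.09 in WT replicate 2. That factor was 0.869 in WT replicate 1 and 0.872 in WT replicate 3.

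The tested miRNA outside the family whose profile over the 6 libraries was closest to that of miR-497 was miR-125b-3p, with a root mean square difference of 0.14 between centred log2 values, where the median over all tested outside the family was 0.55. It averaged 23.5 ± 8.88 RPM in the 403 mutant and 10.1 ± 2.46 RPM in WT (SD, n = 3 each). The next were miR-127 (0.17) and miR-99b* (0.18). Closest to miR-322 were miR-28* (0.13), miR-199a-3p (0.13) and miR-532-5p (0.14). miR-28* was also the closest to miR-15b (0.08), and within the family miR-15b and miR-322 were the closest pair (0.15) and miR-16 and miR-497 the most distant (0.70). For miR-16 the closest were let-7c, miR-24-2* and miR-744 (0.10, 0.10 and 0.12). For miR-195 they were miR-652, miR-99b and miR-23a (0.11, 0.11 and 0.12), and for miR-322* miR-574-3p, miR-423-5p and miR-204 (0.16, 0.19 and 0.21). For miR-15a they were miR-26b, the row let-7c-2*/let-7a* and miR-181b (0.06 each), with log2 differences of 0.09 to 0.10 beside 0.12 for miR-15a. The median over all tested outside the family was 0.26 for miR-15a. Closeness was measured over these same 6 libraries, so similar group differences follow from the choice of neighbours.

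**Figure D5:**
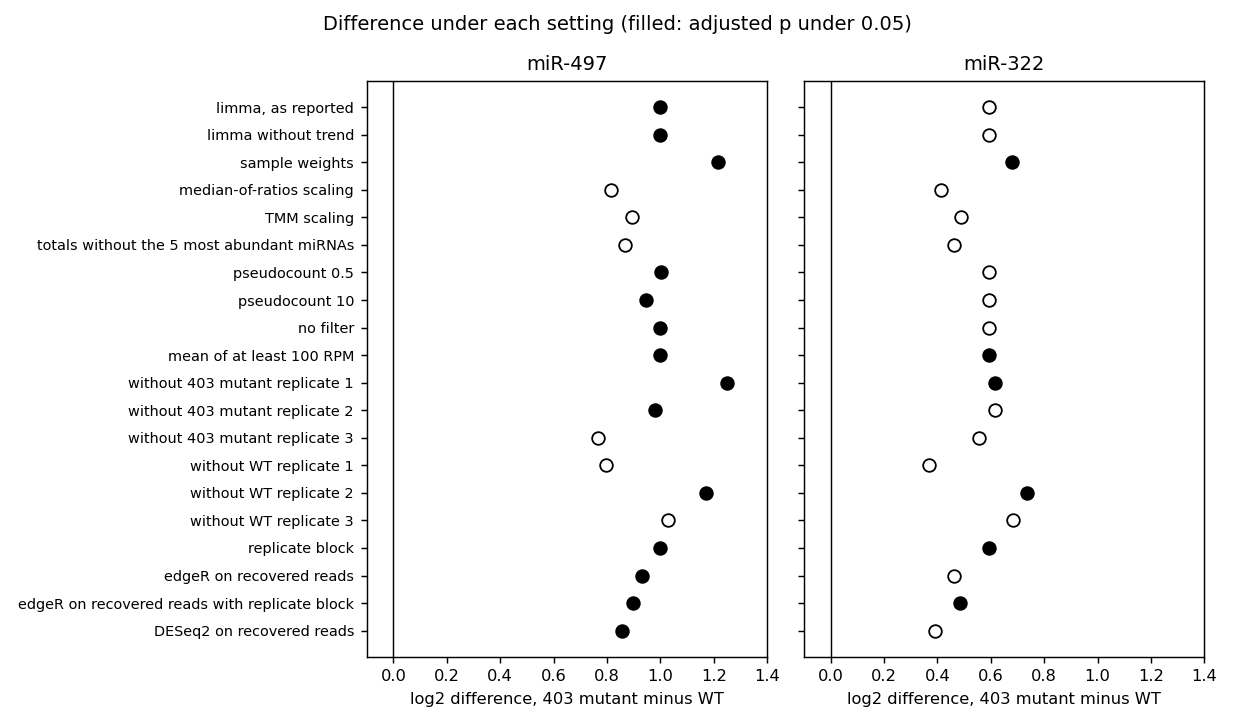
Log2 difference of miR-497 and miR-322, 403 mutant minus WT, under the reported fit and each alternative, with filled points where the adjusted p was under 0.05. miR-497 passes in 13 of 19 alternatives and miR-322 in 6 of 19, and both differences stay above 0 throughout.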

How the data were processed

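Small RNA from 6 left ventricles was isolated by kit and multiplexed as miRNA libraries, per the labels' protocols. The deposited values were taken as RPM: each column sums to about 1000000, and the header calls the columns normalised. In each library 100% of values came out as whole reads, within 0.02 reads; edgeR's count test on them called 9 miRNAs. The sources used here do not name an aligner, counter or build.

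log2(RPM + 1) was tested with limma 3.58.1 (R 4.3.3, trend, two-sided, no covariates) across the 193 miRNAs averaging at least 10 RPM (Benjamini-Hochberg adjustment, threshold 0.05). edgeR 4.0.16 and DESeq2 1.42.0 on recovered reads were alternatives, as were other scalings, filters and pseudocounts, sample weights, a replicate block and each library left out. Log2 ratios of RPM + 1 were compared by exact permutation tests (scipy 1.17.1). Named miRNAs were the members, their listed neighbours past the filter, others with the same seed, and each member's 3 closest profiles. The members and lists were chosen with earlier results of these data known. All 15 library pairs differed beyond sampling noise. limma's p-values set a group difference against the spread between these libraries, with each miRNA's spread drawn towards that of the others tested. The permutation p-values rest on reassigning the libraries to groups. Positions and sequences came from RefSeq (GRCm38.p6), and overlapping genes from GENCODE M21.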

Additional observations from a re-analysis of the deposited data

How the results depend on the processing

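Over 19 alternatives miR-497 kept its direction (0.77 to 1.25) and passed in 13. It did not pass with median-of-ratios scaling (0.82), TMM scaling (0.89) or totals without the 5 most abundant miRNAs (0.87). These scalings lower the median of all miRNAs from 0.15 to −0.02, 0.05 and 0.02; the cause was otherwise not tested. miR-322 kept its direction (0.37 to 0.73) and passed with sample weights (0.68), a mean of at least 100 RPM (0.59), the replicate block (0.59) and edgeR with the block (0.49). miR-15b (0.23 to 0.51) and miR-195 (0.22 to 0.59) kept their direction and passed in none; the 0.22 came under median-of-ratios scaling. Leaving out 1 library gave 0.77 to 1.25 for miR-497, 0.37 to 0.73 for miR-322, −0.13 to 0.23 for miR-16 and −0.010 to 0.60 for miR-322*.

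Signs changed without a pass for miR-15a with median-of-ratios scaling (−0.063), totals without the 5 most abundant (−0.013) and DESeq2 (−0.065), and for miR-322* with DESeq2 (−0.00044). miR-16 changed sign with sample weights (−0.032), median-of-ratios (−0.16), TMM (−0.078), totals without the 5 most abundant (−0.11), edgeR (−0.067), edgeR with the block (−0.081) and DESeq2 (−0.14). The log2 ratio of the summed 6 seed members, 0.28, was 0.11 with median-of-ratios scaling. Without 1 library, the log2 ratio of miR-15a over miR-16 ranged from −0.14 to 0.33, miR-15b over miR-16 from 0.19 to 0.63, miR-15a over miR-15b from −0.38 to −0.17, miR-322 over miR-16 from 0.26 to 0.80 and miR-322* over miR-322 from −0.69 to −0.14.

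Calls over all miRNAs, 10 higher and 0 lower, were 34 and 3 (37 in all) with sample weights, 4 and 1 (5) with median-of-ratios, 4 and 0 with TMM, and 6 and 1 without the 5 most abundant. No filter gave 2 lower, a mean of at least 100 RPM 1, edgeR 1 and DESeq2 4. With each library left out in turn, total calls ranged from 1 to 24, those higher from 1 to 22 and those lower from 0 to 3. The extremes came without WT replicate 3 (1 call) and 403 mutant replicate 1 (24 calls); omitting WT replicate 1 gave 5 calls and WT replicate 2 gave 22. Family members called higher, 1 as reported, numbered 0 under the 3 scalings and 2 with sample weights, the mean of at least 100 RPM and both replicate block fits, with 0 to 2 without 1 library.

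The labels do not say that replicate numbers pair the animals. Same-numbered deviations correlated at 0.51, −0.07 and 0.18, and 2 of the 3 mutants correlated best with their own number. Calls under the replicate block numbered 16 higher and 1 lower (17) by limma and 23 and 10 (33) by edgeR.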
